A study of Mus musculus with 9 samples.

Results

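Quiescence factors are the proteins known to keep resting lymphocytes out of the cell cycle. The 9 described here are the Krüppel-like factors Klf2, Klf3 and Klf4, the forkhead factors Foxo1, Foxo3 and Foxp1, and the anti-proliferative genes Btg1, Btg2 and Tob1. They were taken by name from the 29995 genes of the table without immunoglobulin (Ig) genes. The rule uses gene names alone, and the names were chosen with earlier results of these data known. All 9 were among the 12892 genes that passed the filter on low values, which asked for 3 or more libraries with a TPM of 1 or more. TPM is an abundance corrected for transcript length and scaled to a fixed sum, so levels can be compared between genes.

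RNA-seq was performed on B-lineage cells sorted in repeated passes from the spleens of B6.Blimp1+/GFP mice, whose genotype is given as B6.Blimp1GFP/+ and in which GFP reports Blimp1, the plasma cell regulator encoded by Prdm1. Every mouse was 12 weeks old and had received 50 µg of NP-LPS, a hapten linked to lipopolysaccharide, into the peritoneum 4 days before. Naive B cells were IgD high, B220+ and NP-. Antigen-activated B cells were IgD-, GFP-, CD138-, B220+ and NP+ and are called activated B cells below, and plasma cells (PCs) were IgD-, GFP+, CD138+ and NP+ with B220 on or off. All 3 groups thus carried the reporter allele and came from immunized mice, so the naive cells are not from untouched animals. Each group had 3 libraries. The submitters' design text gives 3 mice for the 3 cell types, so the groups share animals, but the labels do not say which libraries came from the same mouse, and the reported fit leaves this out.

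KLF2 is known for holding naive lymphocytes in a resting state and for the expression of receptors that let them circulate, among them S1pr1. FOXO proteins act in the nucleus until AKT, the kinase downstream of PI3K, phosphorylates them and they are exported, so their mRNA level does not report their activity. FOXP1 is a repressor that is abundant in naive B and T cells. BTG and TOB proteins bring the CCR4-NOT deadenylase to mRNA and shorten poly(A) tails, and BTG1 and BTG2 are known to keep T cells at rest in this way.

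The promoters of 4 members are shown because these genes marked the ends of the pattern below: Klf2, Klf3 and Btg1 had the largest falls in PCs, and Btg2 stayed abundant there. Each line gives the 250 bases before the RefSeq start site (build GRCm38.p6), read 5′ to 3′ along the gene, with matches to CACCC (the core of KLF sites) or GTAAACA (the forkhead motif of FOXO proteins) in capitals, on either strand, so that GGGTG and TGTTTAC are the same motifs read from the other strand. The windows are chr8:72318812-72319061 on the plus strand for Klf2, chr5:64803271-64803520 on the plus strand for Klf3, chr10:96616751-96617000 on the plus strand for Btg1 and chr1:134079156-134079405 on the minus strand for Btg2.
Klf2: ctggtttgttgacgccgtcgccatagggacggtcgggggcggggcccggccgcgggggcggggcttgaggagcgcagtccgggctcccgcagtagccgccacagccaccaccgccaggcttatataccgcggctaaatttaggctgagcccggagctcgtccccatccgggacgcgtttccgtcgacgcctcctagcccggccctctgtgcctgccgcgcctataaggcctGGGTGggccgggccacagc
Klf3: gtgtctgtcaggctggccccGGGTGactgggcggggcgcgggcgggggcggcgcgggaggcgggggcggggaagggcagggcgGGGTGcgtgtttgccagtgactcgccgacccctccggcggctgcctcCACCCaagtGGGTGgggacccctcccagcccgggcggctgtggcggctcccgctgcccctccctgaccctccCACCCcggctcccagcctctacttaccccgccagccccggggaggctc
Btg1: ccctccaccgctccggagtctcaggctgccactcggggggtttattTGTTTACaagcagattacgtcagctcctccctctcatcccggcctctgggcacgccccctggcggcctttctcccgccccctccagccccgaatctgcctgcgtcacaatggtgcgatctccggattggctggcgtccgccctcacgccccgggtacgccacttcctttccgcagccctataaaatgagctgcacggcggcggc
Btg2: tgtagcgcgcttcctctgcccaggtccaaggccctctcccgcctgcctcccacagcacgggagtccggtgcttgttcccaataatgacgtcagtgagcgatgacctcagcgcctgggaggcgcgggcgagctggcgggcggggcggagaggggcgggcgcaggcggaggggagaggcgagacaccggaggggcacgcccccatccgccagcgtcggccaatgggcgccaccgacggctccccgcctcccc

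The letters GTAAACA or their complement stood in 3.65% of 32851 RefSeq promoters of 300 bases (250 before and 50 after the start) and in that of 1 of the 9 members, Btg1, 204 bases before the start. The short KLF core stood in 57.5% of all promoters and in those of 4 of the 9 members, Klf2, Klf3, Foxp1 and Tob1. Klf3 held 5 matches in its 300 bases. AGTGAAAG, a sequence bound by Blimp1, was found in 1.32% of all promoters and in none of the 11 member promoters, of which Foxp1 has 3. No 2 matches of different motifs overlapped in a member promoter, and a match or its absence says only what letters stand in these windows.

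The libraries held 28490300 to 31719400 estimated reads without Ig genes in naive B cells, 34918400 to 38602300 in activated B cells and 20189900 to 22137400 in PCs. The members were covered by 59.4 estimated reads at least (Klf4 in a PC library) and by 39658.6 at most (Btg1 in a naive library). The sort labels were reflected in the sums of their markers, though not in every marker. The summed TPM of 5 naive B markers was 2414 to 2607 in naive, 1924 to 2168 in activated and 158 to 167 in PC libraries. That of 5 plasma cell markers was 142 to 167, 175 to 194 and 4811 to 5939. Among the naive markers, Ms4a1 was higher in activated (mean 1277 TPM) than in naive B cells (864). All 5 plasma cell markers were highest in PCs. Xbp1 made up most of their sum in every group, with means of 119, 156 and 4174 TPM. Irf4 and Sdc1 were lower in activated (11.1 and 0.943 TPM) than in naive B cells (25.1 and 7.02). Ighd, which encodes the IgD heavy chain and is listed only in the full table, was at 2801 to 2904, 37.8 to 42.5 and 0.346 to 1.26 TPM. The other marker lists summed to 5.08 to 65.1 TPM for T cells (8 genes, in B cell libraries mostly Lck), 11.3 to 114 for macrophages and monocytes (8 genes, the highest in PC replicate 3), 0.408 to 49.3 for neutrophils, 6.23 to 37.0 for erythroid cells, 0.0102 to 3.12 for NK cells, 28.8 to 169 for endothelium (8 genes, mostly Pecam1) and 0.312 to 12.5 for fibroblasts. The T cell list was lowest in PCs and the macrophage list lowest in naive B cells (11.3 to 12.3 TPM). Of the T cell markers besides Lck, Cd3e and Trbc2 were highest in activated replicate 3 (1.15 and 3.82 TPM). Cd3d and Cd8a were highest in naive libraries, at up to 2.86 and 3.19 TPM. Of the endothelial markers besides Pecam1, Cdh5 reached 1.02 TPM and Egfl7 4.55 TPM, both in PC libraries. Among the macrophage markers Csf1r stayed at or below 2.31 TPM, while Cd68 had means of 3.98 TPM in naive B cells, 57.6 in activated B cells and 32.5 in PCs, and Mpeg1 had 1.83, 7.85 and 0.605. Other macrophage markers were higher in PC replicate 3 than in the other PC libraries, with Lyz2 at 48.2 TPM (2.85 and 11.6 in the others), C1qb at 15.9 (1.18 and 0.747) and C1qa at 7.24 (at most 0.50 in the others). The neutrophil list was highest in activated replicate 2 (49.3 TPM, with S100a8 at 24.7 and S100a9 at 23.9, each at most 0.228 in the other activated libraries) and in PC replicate 3 (33.0 TPM). Activated replicate 2 also held the lowest level of its group for 6 of the 9 members (Klf2, Klf3, Klf4, Foxo1, Btg1 and Btg2). The part of such cells in the members' values was not tested. The gates of every group also left out cells bearing a set of T cell, macrophage and erythroid surface markers. PC replicate 3 also stood apart with a summed TPM of 5752 for 7 hepatocyte genes, against 23.0 and 26.5 in the other PC libraries. The members' levels in that library lay close to those of the other PC libraries, and leaving it out changed the call of no member in any comparison. Because PC transcripts are largely Ig, removing Ig genes multiplied the other values by 3.33 to 3.60 in PC libraries, by 1.11 to 1.13 in activated libraries and by 1.07 in naive libraries. The full table sums to 936731 to 937784 TPM in naive, 902902 to 912982 in activated and 671550 to 699885 in PC libraries, so with Ig genes kept a change relative to the column sum differs from one of the TPM values themselves, and both are given for the members they affect. Values below are TPM of the table without Ig genes, and the full table is given where it changes a direction or a call.

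The first question was whether the quiescence factors were lower once B cells had lost IgD and bound antigen, and the second how they stood in PCs. A gene was called when its Benjamini-Hochberg adjusted p-value from limma was under 0.05 and its fold over 2, and log2 changes are those of voom, on the scale of log2(TPM + 0.5) relative to the column sum. Between activated and naive B cells, limma called 0 of the 9 members, beside 8.13% of all tested genes called higher and 10.4% called lower. By the adjusted p-value alone 1 member was higher (Klf2) and 4 were lower (Foxp1, Btg1, Btg2 and Tob1), beside 18.6% and 23.5% of all tested genes, and the same 5 members had an unadjusted p-value under 0.05. In PCs against naive B cells, 5 members fell (Klf2, Klf3, Foxo1, Foxp1 and Btg1) and 1 rose (Foxo3), where 26.3% of all tested genes were called lower and 11.4% higher. In PCs against activated B cells, the same 5 members fell and 2 rose (Foxo3 and Btg2), where 22.3% of all tested genes were called lower and 9.93% higher. The median log2 change of the members was -0.51, -1.66 and -1.10 in the 3 comparisons, and that of all tested genes was -0.16, -0.47 and -0.30. The comparisons share libraries and are not independent of each other. In bulk RNA, fewer cells that express a gene and less RNA per cell cannot be told apart.

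**Figure D1:**
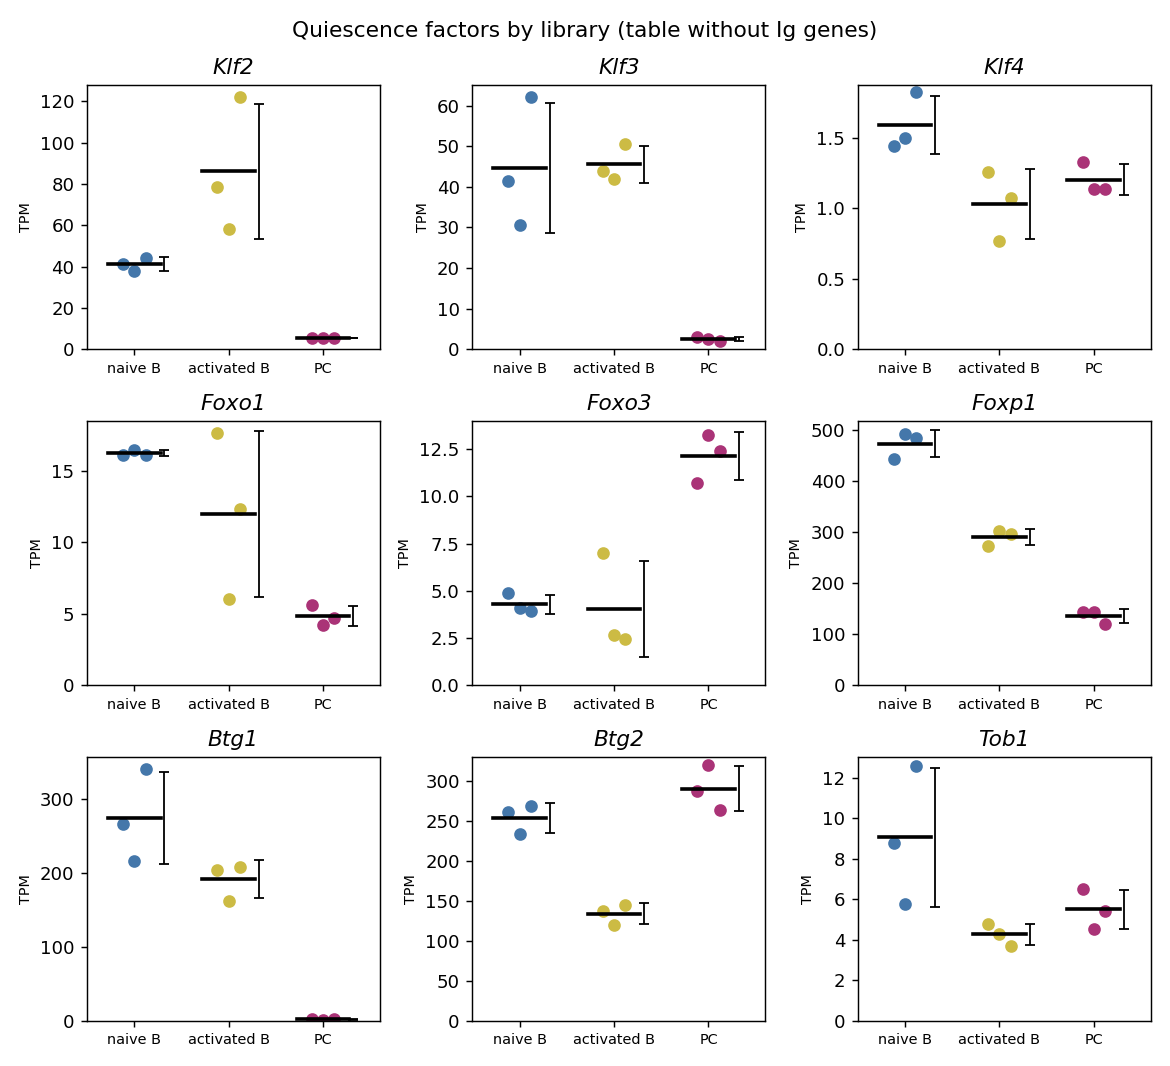
TPM of the 9 quiescence factors (vertical axes, linear and starting at 0, a scale of its own for each gene) in the 3 libraries of naive B cells, activated B cells and PCs. Points are libraries, horizontal lines are means and bars are ± SD (n = 3). Klf2, Klf3 and Btg1 lie near the bottom in every PC library, while Foxo3 is highest there and Btg2 is lowest in activated B cells.

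Klf2 encodes a zinc finger activator of the resting state. Its level was 41.4, 38.0 and 44.4 TPM in naive libraries, 78.4, 58.0 and 122 TPM in activated libraries, and 5.20, 5.37 and 5.50 TPM in PC libraries. The 3 groups did not overlap, and activated B cells were the highest and the most variable. The mean was 41.3 ± 3.20 (SD, n = 3) TPM in naive and 86.2 ± 32.7 TPM in activated B cells. This difference was not called, since the fitted log2 change of 0.98 ± 0.23 (SE) lay just under the fold threshold at a limma adjusted p of 0.00621. That difference was called in 7 of 21 other settings, among them the fit with the replicate number as a block (1.00, limma adjusted p = 0.00232) and the fit without activated replicate 2 (1.23). Over all of them the log2 change was 0.70 to 1.23. Klf2 fell in PCs, where the mean was 5.35 ± 0.152 TPM. Its log2 change was -2.84 ± 0.35 from naive B cells (limma adjusted p = 3.84e-05) and -3.82 ± 0.34 from activated B cells (adjusted p = 3.73e-06).

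Klf3 encodes a zinc finger repressor of the same family. Its level was 41.6, 30.5 and 62.1 TPM in naive libraries, 43.8, 42.0 and 50.7 TPM in activated libraries, and 2.90, 2.50 and 2.11 TPM in PC libraries. Naive and activated libraries overlapped, and every PC library was far below the lowest of them. The log2 change between activated and naive B cells was 0.07, with a 95% interval of -0.40 to 0.54, and its sign turned without naive replicate 2 (-0.17). Klf3 fell in PCs, with log2 changes of -3.87 ± 0.36 from naive B cells (limma adjusted p = 4.41e-06) and -3.94 ± 0.36 from activated B cells (adjusted p = 4.74e-06). Klf2 and Klf3, close in level in naive B cells (a mean Klf2 to Klf3 ratio of 0.985), stood at ratios of 1.86 in activated B cells and 2.18 in PCs.

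Klf4, a regulator better known from stem cells and epithelium that also restrains lymphocyte division, was low throughout. It had 1.44, 1.50 and 1.82 TPM in naive libraries, 1.26, 0.767 and 1.07 TPM in activated libraries, and 1.33, 1.14 and 1.14 TPM in PC libraries. All naive libraries lay above all others, but no difference was called. The log2 changes were -0.46 (95% interval -1.06 to 0.14) for activated against naive B cells, -0.30 (-0.89 to 0.29) for PCs against naive B cells and 0.16 (-0.46 to 0.78) for PCs against activated B cells. With 59.4 to 118.4 estimated reads per library, Klf4 was the member with the fewest reads, and both PC differences changed sign with the scaling. Klf4 was called higher in PCs than in activated B cells in 1 setting, median of ratios scaling with Ig genes kept (1.29 on the log2 scale, limma adjusted p = 8.06e-04), and lower than in naive B cells in 1 other, with Ig genes kept and TPM not rescaled (-1.22, adjusted p = 4.80e-04).

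Foxo1 encodes the main FOXO factor of B cells. It had 16.1, 16.5 and 16.1 TPM in naive libraries, 17.6, 5.99 and 12.3 TPM in activated libraries, and 5.60, 4.22 and 4.71 TPM in PC libraries. Naive libraries were nearly equal, activated libraries spread over a wide range on both sides of them, and PC libraries lay below all others. The log2 change between activated and naive B cells was -0.55 (95% interval -1.19 to 0.09), and it rested on single libraries, at -0.14 without activated replicate 2 and -0.88 (limma adjusted p = 0.0238) without activated replicate 1. In PCs Foxo1 fell, with log2 changes of -1.66 ± 0.33 from naive B cells (limma adjusted p = 0.00137) and -1.11 ± 0.35 from activated B cells (adjusted p = 0.0194). The last call was lost in 6 of 21 other settings, with -0.73 under median of ratios scaling, -0.64 under quantile normalization, -0.42 (limma adjusted p = 0.357) under median of ratios scaling with Ig genes kept, -0.78 without activated replicate 1, -1.03 without activated replicate 3 and -1.02 without PC replicate 2.

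Foxo3, its paralog, was highest in PCs. It had 4.86, 4.07 and 3.93 TPM in naive libraries, 6.97, 2.66 and 2.43 TPM in activated libraries, and 10.7, 13.2 and 12.4 TPM in PC libraries. All PC libraries were above all others, and activated replicate 1 stood above the naive range while the other two stood below it. The difference between activated and naive B cells was -0.23 on the log2 scale (95% interval -0.96 to 0.51). Foxo3 rose in PCs by 1.39 ± 0.29 on the log2 scale from naive B cells (limma adjusted p = 0.00162) and by 1.62 ± 0.30 from activated B cells (adjusted p = 8.18e-04). Both rises were called in 18 of 20 other settings, and the exceptions were the fits of the full table that keep its Ig genes without median of ratios scaling. In that table the TPM means were 4.01 in naive B cells, 3.58 in activated B cells and 3.54 in PCs. On those TPM values the limma log2 changes in PCs were -0.16 from naive B cells (adjusted p = 0.630) and 0.11 from activated B cells (adjusted p = 0.747), so that the first changed sign, and relative to the column sum they were 0.29 (adjusted p = 0.393) and 0.52 (adjusted p = 0.161). Under median of ratios scaling with Ig genes kept they were 2.02 and 2.12.

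The ratio of Foxo1 to Foxo3 does not depend on the Ig genes, since both are divided by the same sum. It was 3.31, 4.04 and 4.09 in naive libraries, 2.53, 2.26 and 5.08 in activated libraries, and 0.522, 0.319 and 0.379 in PC libraries. Foxo1 was thus the higher of the pair in every B cell library and the lower in every PC library.

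**Figure D2:**
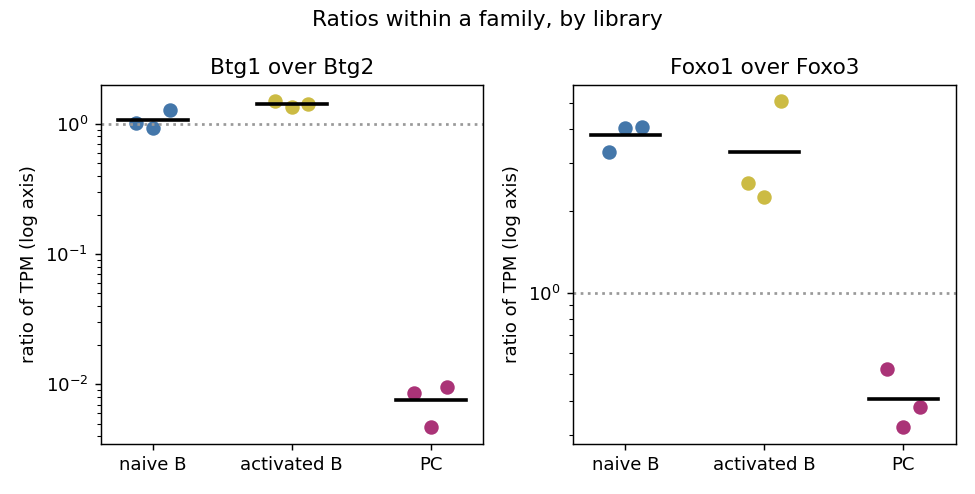
Ratio of TPM between the members of a pair (vertical axes, log scale) in each library of the 3 groups, with Btg1 over Btg2 on the left and Foxo1 over Foxo3 on the right. Points are libraries, short lines are means and the dotted line marks equal levels. All PC libraries lie below equal levels for both pairs, at 0.00468 to 0.00959 for Btg1 over Btg2 and at 0.319 to 0.522 for Foxo1 over Foxo3.

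Foxp1 was the most abundant member in B cells. It had 443, 491 and 485 TPM in naive libraries, 272, 302 and 295 TPM in activated libraries, and 143, 143 and 119 TPM in PC libraries. The groups formed 3 steps with no overlap. The step from naive to activated B cells was -0.71 ± 0.09 on the log2 scale (limma adjusted p = 1.98e-04), a 1.64-fold difference that the fold threshold left uncalled. Foxp1 fell in PCs, with log2 changes of -1.81 ± 0.10 from naive B cells (limma adjusted p = 7.19e-08) and -1.10 ± 0.10 from activated B cells (adjusted p = 5.36e-06). The second of these lost its fold of over 2 in 3 of 21 other settings, median of ratios scaling without and with Ig genes (-0.72 and -0.68) and quantile normalization (-0.94). Even so, Foxp1 stayed at the mean percentile 91.9 of all tested genes in PCs, against 97.9 in naive B cells.

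Btg1 had the largest change of the members. It had 266, 216 and 340 TPM in naive libraries, 205, 162 and 208 TPM in activated libraries, and 2.49, 1.50 and 2.53 TPM in PC libraries. Activated libraries lay below the naive libraries by a small margin, and PC libraries lay far below both. The log2 change between activated and naive B cells was -0.51 ± 0.16 (limma adjusted p = 0.0257), which was not called, and it was -0.40 (adjusted p = 0.081) without activated replicate 2. Over all other settings its adjusted p was 0.00194 to 0.101. Btg1 fell 103-fold from naive B cells to PCs, a log2 change of -6.69 ± 0.36 (limma adjusted p = 6.37e-08). It fell 72.6-fold from activated B cells, a log2 change of -6.18 ± 0.36 (limma adjusted p = 1.59e-07). Over all other settings these log2 changes were -7.81 to -5.62 from naive B cells and -7.24 to -5.22 from activated B cells. In naive B cells Btg1 stood at the 96.1 percentile of tested genes, and in PCs at the 24.5 percentile. The low PC values still rested on 145.3 to 236.4 estimated reads per library.

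Btg2 encodes the closest relative of BTG1 and did not share this fall. It had 261, 233 and 269 TPM in naive libraries, 138, 120 and 145 TPM in activated libraries, and 287, 321 and 264 TPM in PC libraries. Activated libraries lay below all others, and PC and naive libraries overlapped. The log2 change from naive to activated B cells was -0.93 ± 0.11 (limma adjusted p = 1.09e-04), a 1.90-fold difference and so not called. Btg2 rose from activated B cells to PCs by 1.11 ± 0.11 (limma adjusted p = 9.90e-06), and its change from naive B cells to PCs was 0.18 (95% interval -0.05 to 0.42). Both PC values depend on the scaling. In the full table the TPM means were 238, 120.2 and 84.7 in naive B cells, activated B cells and PCs. On those TPM values the limma log2 changes in PCs were -1.49 beside naive B cells (adjusted p = 4.05e-07) and -0.50 beside activated B cells (adjusted p = 0.00119), and relative to the column sum they were -1.03 (adjusted p = 6.51e-06) and -0.09. Under median of ratios scaling with Ig genes kept they were 0.70 and 1.52, and the rise from activated B cells was called in 19 of 21 other settings.

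The ratio of Btg1 to Btg2, which the removal of Ig genes leaves as it is, was 1.02, 0.929 and 1.27 in naive libraries and 1.49, 1.36 and 1.43 in activated libraries. It was 0.00867, 0.00468 and 0.00959 in PC libraries. The pair was thus close to even in B cells, with every activated library above every naive library, and almost wholly Btg2 in PCs.

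Tob1, which joins the same deadenylase through its BTG domain, was a gene of low level. It had 8.80, 5.79 and 12.6 TPM in naive libraries, 4.77, 4.31 and 3.72 TPM in activated libraries, and 6.50, 4.56 and 5.44 TPM in PC libraries. Activated libraries lay below all naive libraries, and PC libraries overlapped both. The log2 change was -0.95 ± 0.29 in activated against naive B cells (limma adjusted p = 0.0212), a 1.94-fold difference that was not called, and it was called in 3 of 20 other settings, without naive replicate 2 (-1.23), without activated replicate 1 (-1.03) and with log2(TPM + 0.1) (-1.01). The changes in PCs were -0.63 (95% interval -1.24 to -0.02, limma adjusted p = 0.0698) against naive B cells and 0.33 (-0.34 to 1.00) against activated B cells. In the full table the first became -1.59 relative to the column sum and -2.04 on the TPM values, called lower in both, and the second became -0.63 and -1.04, of which the last was called lower.

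**Figure D3:**
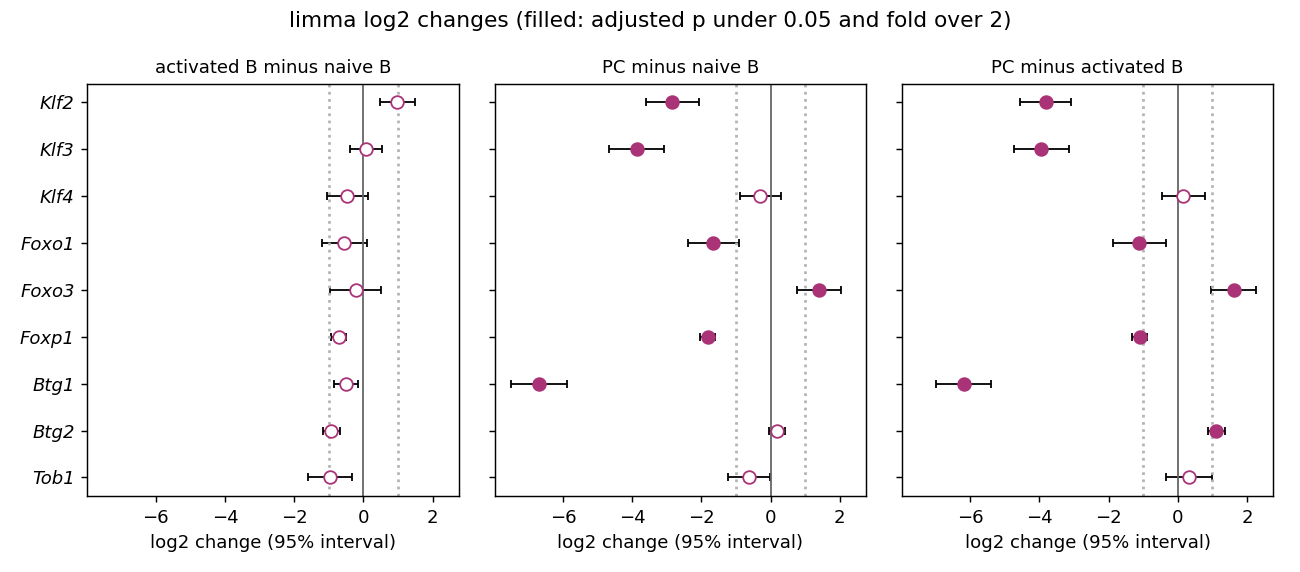
Limma log2 changes of the 9 members (horizontal axes) with 95% intervals for activated minus naive B cells, PCs minus naive B cells and PCs minus activated B cells. Filled points have an adjusted p under 0.05 and a fold over 2, and dotted lines mark that fold. No point is filled in the first comparison, 6 are in the second and 7 in the third, with Btg1 farthest from 0 at -6.69 and -6.18.

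Taking the levels of each group in order, Foxp1 led in naive B cells, followed by Btg1 and Btg2, whose libraries overlapped, then Klf3 and Klf2, which also overlapped, then Foxo1, Tob1, Foxo3 and Klf4, each clear of the next. In activated B cells the order of the means was Foxp1, Btg1, Btg2, Klf2, Klf3, Foxo1, Tob1, Foxo3 and Klf4, where Btg2 and Klf2 overlapped and so did Tob1 and Foxo3, and Foxo1 and Foxo3. In PCs Btg2 led with 291 ± 28.6 TPM, Foxp1 followed with 135 ± 14.1 TPM and Foxo3 with 12.1 ± 1.28 TPM. Tob1, Klf2 and Foxo1 came next with overlapping libraries at 4.22 to 6.50 TPM, then Klf3 and Btg1, which overlapped, and Klf4 last. Apart from Btg2 and Foxp1, the highest level of a member in a PC library was 13.2 TPM (Foxo3 in PC replicate 2).

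Since the removal of Ig genes raises every other PC value, the PC changes were set beside other scalings. With Ig genes kept and relative to the column sum, as in the lists below, the median over all tested genes moved by -0.93 for PCs against naive B cells and by -0.97 for PCs against activated B cells, and on the TPM values by -1.38 in each. Median of ratios scaling moved it by 0.49 and 0.38, and quantile normalization by 0.40 and 0.30. The falls of Klf2, Klf3 and Btg1 in both PC comparisons and of Foxp1 against naive B cells were called in 21 of 21 other settings. The fall of Foxo1 against naive B cells was lost in 1 setting of 21, with Ig genes kept under median of ratios scaling (-0.85). Set against activated B cells, Klf4, Btg2 and Tob1 changed sign in PCs only with Ig genes kept, relative to the column sum (-0.32, -0.09 and -0.63) and on the TPM values (-0.73, -0.50 and -1.04), and not when median of ratios scaling was added. Set against naive B cells, Klf4 turned positive under median of ratios scaling without and with Ig genes (0.20 and 0.96) and under quantile normalization (0.14), Btg2 turned negative with Ig genes kept (-1.03, and -1.49 on the TPM values) and under quantile normalization (-0.07), Foxo3 turned to -0.16 on the TPM values of the full table, and Tob1 turned to 0.14 with Ig genes kept under median of ratios scaling.

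**Figure D4:**
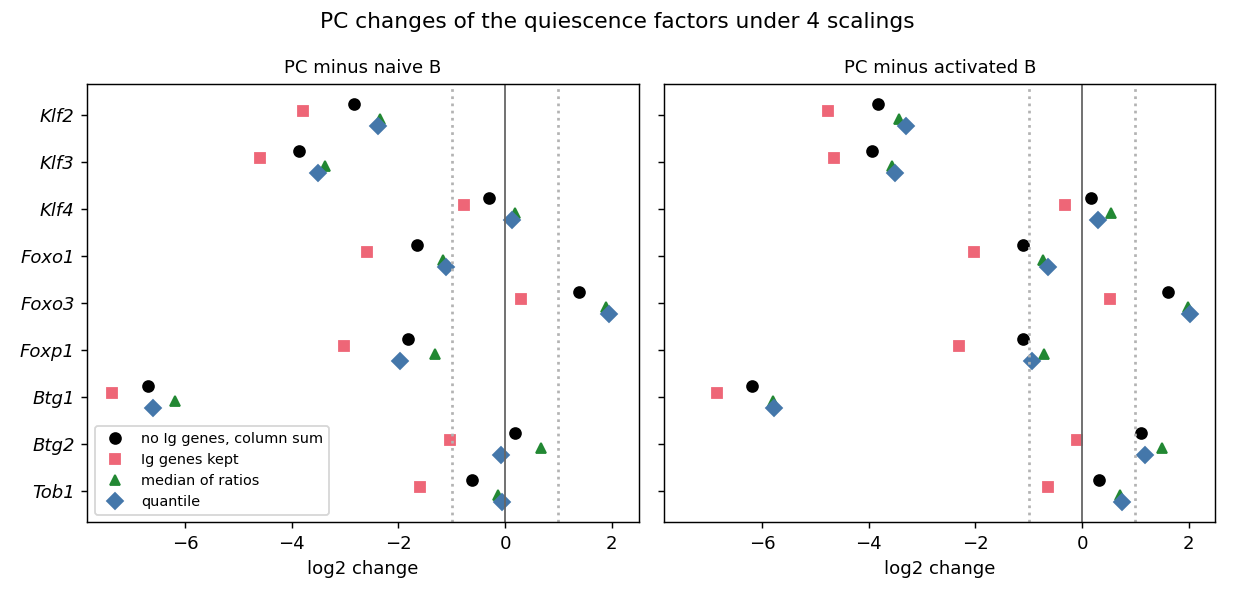
Log2 changes of the 9 members (horizontal axes) in PCs minus naive B cells and PCs minus activated B cells under 4 scalings: without Ig genes and relative to the column sum, with Ig genes kept and relative to the column sum, by median of ratios, and by quantile normalization. Dotted lines mark a fold of 2. Keeping Ig genes shifts every member to the left, so that Foxo3 lies at 0.29 and 0.52 and Btg2 at -1.03 and -0.09, while Klf2, Klf3 and Btg1 stay left of the lower dotted line under all 4.

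Reads were counted without strand, so overlapping genes share reads. In the annotation used (GENCODE M21), exons of Klf3 overlap those of Gm20033 on the opposite strand over 404 bases, and exons of Foxo1 overlap those of Gm20402 over 674 bases. Foxp1 shares 300 bases with Gm20696 and 135 bases with the miRNA gene Gm49348, both on its own strand. Gm20696 had 40.7 ± 3.97 TPM in naive B cells, 23.2 ± 3.31 in activated B cells and 6.51 ± 1.33 in PCs. It followed the steps of Foxp1 at a level that was lower in every library. The other 6 members overlapped no annotated exon of another gene.

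The relatives of the members were read next, from lists described with the processing. Over all tested genes, 10.4%, 26.3% and 22.3% were called lower in the 3 comparisons and 8.13%, 11.4% and 9.93% higher. With Ig genes kept, 7943 and 7355 of 12324 tested genes were called lower in the 2 PC comparisons. List counts near these shares do not set a list apart from other genes. Of 9 other KLF genes tested, 1 fell in activated against naive B cells (Klf11, a repressor, -1.43 on the log2 scale). From naive B cells to PCs 6 of the 9 fell, most of all Klf11 (-2.09) and Klf16 (-1.59). From activated B cells to PCs, Klf16 (-1.95) and Klf13 (-1.47) fell and Klf8 rose (1.37). Klf8 was near the floor of the table, with 0.00 to 0.915 TPM in activated B cells and 0.772 to 3.21 TPM in PCs. Scaling matters for this family: the 6 PC calls against naive B cells became 2 under median of ratios scaling and 7 of 8 tested with Ig genes kept, and Klf16 turned to 0.16 with both together.

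Among the other forkhead relatives, Foxo4, Foxp2 and Foxp4 were tested. Foxp4 fell in activated against naive B cells (-1.32 on the log2 scale). All 3 fell in PCs when set beside naive B cells, at -2.23 for Foxp4, -1.15 for Foxo4 and -1.14 for Foxp2. Only Foxp4 kept that call under each of the 5 other scalings tried for the lists, while Foxo4 turned to 0.48 with Ig genes kept under median of ratios scaling. Of the other anti-proliferative genes, Tob2 fell in activated B cells (-1.18) and in PCs (-1.75), both against naive B cells and under all 5 other scalings. Btg3 varied from 0.00 to 7.79 TPM among PC libraries alone and was called in no comparison.

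The CCR4-NOT deadenylase and poly(A) binding partners of BTG and TOB proteins were mostly not called in the table without Ig genes. Of 15 tested genes, 1 was called in each comparison, and it was Pan3, a subunit of the PAN2-PAN3 deadenylase. Some others passed the adjusted p-value but not the fold. Rqcd1 changed by 0.82 on the log2 scale in activated against naive B cells (limma adjusted p = 7.20e-04). Its change in PCs against activated B cells was -0.95 (limma adjusted p = 1.25e-04). Pan3 rose by 1.38 on the log2 scale in activated against naive B cells, where its libraries held 190.3, 57.4 and 83.7 TPM, and it fell in PCs against naive B cells (-1.15) and against activated B cells (-2.53). The call against naive B cells was lost under median of ratios scaling without and with Ig genes and under quantile normalization. The median log2 changes of the list were -0.02, -0.49 and -0.46, near those of all tested genes. With Ig genes kept, 13 and 14 of the 15 were called lower in the PC comparisons, beside 7943 and 7355 of 12324 tested genes.

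The trafficking receptors that KLF2 is known to control were not higher in activated than in naive B cells. Where Klf2 was higher than in naive B cells in every library, S1pr1, the receptor for egress into blood and lymph, went from 267.8 ± 20.4 to 197 ± 19.4 TPM. This change of -0.45 on the log2 scale was not called, and Ccr7, the chemokine receptor of the T cell zone, fell by 1.94. All 4 tested receptors fell in PCs, as Klf2 did. Set against naive B cells, the log2 changes were -3.22 for S1pr1, -4.31 for Itgb7 and -8.64 for Ccr7. Set against activated B cells they were -2.77, -3.37 and -6.69, and these 6 calls held under the 5 other scalings.

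Targets through which FOXO proteins are known to act were mixed. Of 14 tested, 4 fell in activated against naive B cells, and the largest falls were Txnip, an inhibitor of thioredoxin and glucose uptake (-2.18 on the log2 scale), and Ccr7 (-1.94). From naive B cells to PCs 7 fell, Ccr7 the most, and 1 rose. The riser was Bcl2l11, which encodes the death factor BIM, at 14.2 to 17.2 TPM in naive libraries, 10.9 to 16.3 in activated libraries and 437 to 481 in PC libraries, a log2 change of 4.84 (limma adjusted p = 7.37e-10). From activated B cells to PCs 6 fell, Ccr7 the most, and 2 rose, Bcl2l11 (5.04) and Irs2, an insulin receptor adaptor (2.25). Bcl2l11 was called higher under all 5 other scalings in both PC comparisons. The list medians were -0.74, -1.08 and -1.16. The counts against activated B cells became 4 higher and 6 lower under median of ratios scaling, and 4 and 4 with a list median of -0.15 when Ig genes were also kept. The counts against naive B cells became 1 higher and 10 lower with Ig genes kept.

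Of 15 genes of the PI3K and AKT pathway, which sets FOXO proteins aside, Akt1 rose by 1.28 on the log2 scale in activated against naive B cells and 2 fell, among them Sgk1 (-1.25). In each PC comparison 7 of the 15 fell. Pik3ap1, an adaptor that brings PI3K to B cell receptors, fell from activated B cells (-2.10 on the log2 scale). These counts became 5 and 5 under median of ratios scaling and 15 and 12 with Ig genes kept.

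Other genes known for lymphocyte rest were read in the same way. Of 17 tested, 5 fell in activated against naive B cells, led by Tsc22d3, a glucocorticoid-induced regulator (-2.13 on the log2 scale), and Zfp36l2, an mRNA decay factor (-1.27). There 1 rose, Rbl1, a relative of the retinoblastoma protein (1.12). Those 5 became 3 under median of ratios scaling, where Ets1 and Runx1 lost the call. From naive B cells to PCs 9 fell, led by Bach2, a repressor of the plasma cell program (-4.61), and Slfn2, whose mutation in mice costs T cells their quiescence (-4.39), and 1 rose, the cell cycle inhibitor Cdkn2c (1.36). With Ig genes kept 13 were called lower and the Cdkn2c call was lost (0.19). From activated B cells to PCs 7 fell, again led by Bach2 (-3.92) and Slfn2 (-3.15), and with Ig genes kept 14 were called lower. For comparison, 12 of 13 proliferation genes rose in activated against naive B cells, led by Birc5 (4.59 on the log2 scale) and Mki67 (4.22), at the stage at which no member was called. From naive B cells to PCs 9 of the 13 rose, led by Mki67 (4.62) and Rrm2 (4.20), and Myc fell (-2.49). The 9 became 12 under median of ratios scaling and 8 with Ig genes kept. Myc also fell from activated B cells to PCs (-3.11), where no other gene of that list was called in the table without Ig genes. With Ig genes kept, 12 of the 13 were called lower there, beside 7355 of 12324 tested genes.

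**Figure D5:**
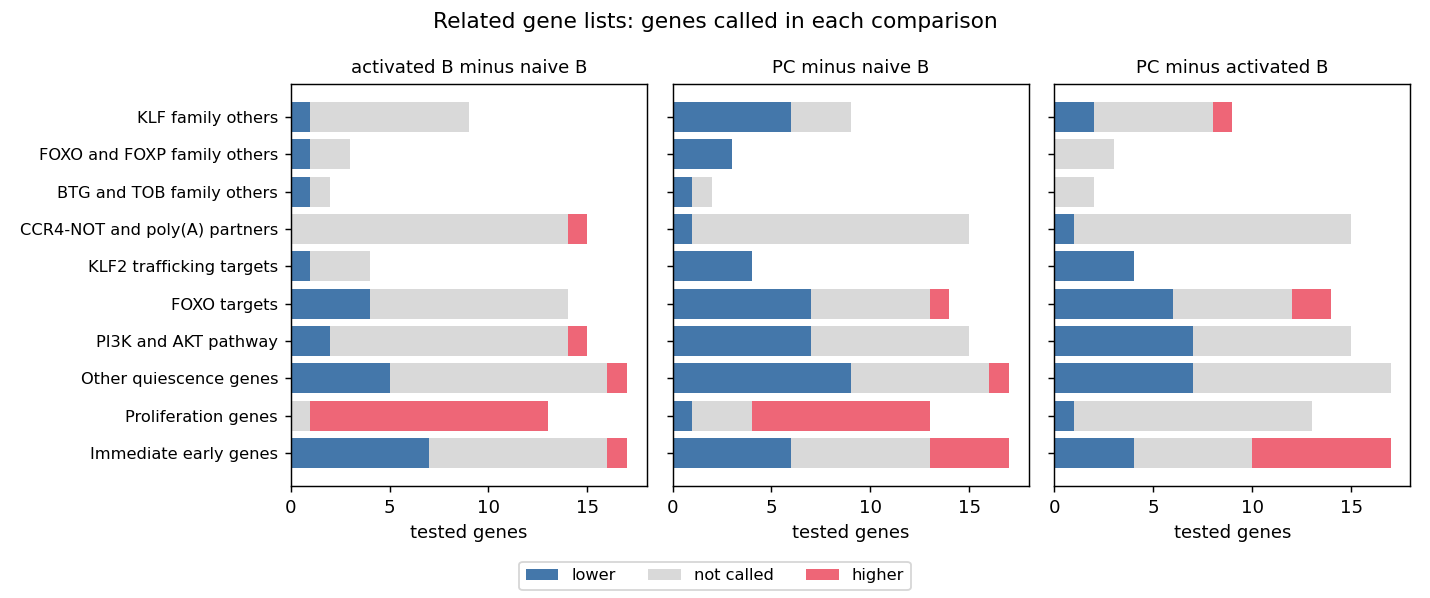
Number of tested genes (horizontal axes, from 0) of 10 related lists that limma called lower, not called, or called higher in the 3 comparisons, at an adjusted p under 0.05 and a fold over 2 in the table without Ig genes. Proliferation genes are almost wholly higher in activated B cells (12 of 13), the 4 KLF2 trafficking targets are all lower in both PC comparisons, and the deadenylase partners are mostly not called.

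Btg2, Klf2 and Klf4 belong to genes that respond within minutes to signals and to cell handling, so immediate early genes were read beside them. Of 17 tested, 1 rose and 7 fell in activated against naive B cells, with Jund higher (2.58 on the log2 scale) and Nr4a1 (-3.21) and Egr3 (-2.83) lower. From naive B cells to PCs 4 rose, led by Fos (4.29) and Jun (2.79), and 6 fell, led by Nr4a1 (-5.03) and Egr3 (-3.41). These 2 genes were near the floor in PCs, at no more than 0.390 and 0.169 TPM. Over the 5 other scalings their log2 changes were -6.21 to -3.22 and -6.34 to -1.25. Ier5 (-3.30) was close to Egr3, at -4.27 to -2.55 over those scalings, so the order of Egr3 and Ier5 is not fixed. From activated B cells to PCs 7 rose, led by Jun (4.21) and Fos (4.03), and 4 fell, led by Jund (-2.57) and Ier5 (-2.46). With Ig genes kept, 3 were higher and 7 lower of 16 tested, and the median of the list went from 0.94 to -0.24. Fos had a mean of 33.1 TPM in naive B cells, 39.9 TPM in activated B cells and 657 TPM in PCs. Ier2 and Zfp36 had a pattern like that of Btg2, lowest in activated B cells at 68.3 and 12.9 TPM, against 212 and 52.5 TPM in naive B cells and 196 and 43.5 TPM in PCs, and these 2 genes were picked after their values were seen. Their rises from activated B cells to PCs were lost with Ig genes kept (0.32 for Ier2 and 0.63 for Zfp36). The part of cell handling in the Btg2, Klf2 and Klf4 values was not tested.

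The genes most like each member over the 9 libraries, by Pearson r of log2(TPM + 0.5), are given as a description, since libraries of a group share their cell type. Btg1 was closest to Ms4a4c, Cd72 and Slc28a2 (r = 0.998 for each), and Cd72, a B cell coreceptor, went from 608 TPM in naive B cells to 3.56 TPM in PCs. Foxp1 was closest to Myh9, Stk17b and Mkl1 (r = 0.997 for each). Klf3 was closest to Galnt10 (0.997), Strada (0.993) and Tmem245 (0.993), and Klf2 to Fbl (0.994), Cct4 (0.994) and Rnf219 (0.993). Fbl, a nucleolar methyltransferase, and Cct4, a chaperonin subunit, shared with Klf2 the order of activated B cells over naive B cells over PCs. Foxo1 was closest to Ankrd46 (0.977), Cdc42ep3 (0.972) and Ppp1r16b (0.969), and Foxo3 to Slc44a1 (0.991), Pi4k2b (0.984) and Zdhhc14 (0.975). Btg2 was closest to Faah, Alg1 and Rnf122 (0.988 for each), and Alg1, an enzyme of N-glycan assembly in the endoplasmic reticulum, had means of 40.1, 18.8 and 51.7 TPM in naive B cells, activated B cells and PCs. The closest genes to Klf4 (Zswim1, Kcnk5 and Abhd2, r = 0.955, 0.937 and 0.928) and to Tob1 (Mlip, Cux2 and Clvs1, r = 0.941, 0.939 and 0.938) had lower r. Among the members, Btg1 and Klf3 (0.990) and Klf2 and Klf3 (0.960) were the most alike, and Btg1 and Btg2 had r = -0.56, as did Foxo1 and Foxo3 with r = -0.57.

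Klf2 lies on chromosome 8 (72319062 to 72321654), Klf3 on chromosome 5 (64803521 to 64832901), Klf4 on chromosome 4 (55527137 to 55532475), Foxo1 on chromosome 3 (52268337 to 52350109) and Foxp1 on chromosome 6 (98925342 to 99522746). Foxo3 and Btg1 both lie on chromosome 10, at 42181845 to 42276695 and 96617001 to 96622813. Btg2 lies on chromosome 1 (134074865 to 134079155) and Tob1 on chromosome 11 (94209842 to 94215495). All are annotated as protein-coding in RefSeq, build GRCm38.p6.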

How the data were processed

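RNA of 9 libraries was extracted from sorted cells, made into cDNA by template switching (SMART-Seq v4) and tagmented (Nextera XT), a chemistry that keeps no strand, and read single end. The deposited TPM values were made by the authors with kallisto, and the log2 values they deposited came from voom. The build in the submitters' processing notes is mm10. Both came for 30317 genes and for 29995 genes without Ig genes. Estimated reads were recovered from the log2 values.

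The TPM without Ig genes went through voom and limma (version 3.58.1, R 4.3.3), relative to the column sum, with 9 libraries, 3 group means and no block, and p-values were adjusted by Benjamini-Hochberg over 12892 genes. P-values set a group difference against the spread between these libraries, which the fit treats as independent although the groups share mice. The procedure was run on simulated data with independent libraries and no shift in Ig content. That run cannot show how scaling or shared mice affect the calls. The members, the related lists, the marker lists and the naming rule (all members, per list and comparison the 2 called genes that rose most and the 2 that fell most, every tested gene of small families, and the 3 genes most like each member) were chosen with earlier results of these data known. Alternatives were Ig genes kept, other filters, scalings and offsets, the deposited log2 values, a replicate block, fewer libraries and no fold threshold. No pair of libraries shared values. The sources used here do not tie libraries to a sequencer, and no batch was examined. Identity between member proteins was not analysed here. Promoters and positions are from RefSeq (GRCm38.p6). Some genes of the related lists are counted but not reported here by name.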

Additional observations from a re-analysis of the deposited data

How the results depend on the processing

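Most member changes kept their direction and side of the thresholds, and the main shifts were these. Members called lower in activated against naive B cells numbered 2 under quantile normalization (Foxp1 and Btg2), 1 with log2(TPM + 0.1) and 4 with no fold threshold, against 0 in the analysis as reported. Members called higher there numbered 1 (Klf2) under median of ratios scaling, deposited log2 values, the replicate block, no fold threshold, and Ig genes kept with median of ratios scaling, the last of which was added after seeing the data, as was Ig genes kept with TPM not rescaled. Leaving out a library gave 0 to 1 in either direction. In PCs against naive B cells, members called lower numbered 7 with Ig genes kept, 8 when TPM was also not rescaled and 4 when scaled by median of ratios, and members called higher numbered 0 with Ig genes kept, rescaled or not, and 0 with a mean TPM of at least 10, where 6 members were tested, and leaving out a library kept 5 lower and 1 higher. In PCs against activated B cells, members called lower numbered 3 under median of ratios scaling, quantile normalization, and Ig genes kept with median of ratios scaling, and 4 to 5 when a library was left out. Members called higher there numbered 0 with Ig genes kept, rescaled or not, and 1 with a mean TPM of at least 10, and 2 in each fit without a library.

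Signs turned as follows. In activated against naive B cells, Klf3 became -0.17 without naive replicate 2 and -0.0054 without activated replicate 3, within a range of -0.17 to 0.34 over the fits without a library. Foxo3 became 0.019 without activated replicate 3, within a range of -0.66 to 0.019. In PCs against naive B cells, Klf4 became 0.20 under median of ratios scaling, 0.14 under quantile normalization and 0.96 under Ig genes kept with median of ratios scaling, which also moved Tob1 to 0.14. With Ig genes kept and TPM not rescaled, Foxo3 became -0.16 and Btg2 -1.49. Btg2 became -1.03 with Ig genes kept and -0.069 under quantile normalization. In PCs against activated B cells with Ig genes kept, Klf4 became -0.32, Btg2 -0.091 and Tob1 -0.63, and with TPM not rescaled -0.73, -0.50 and -1.04. Ig genes kept with median of ratios scaling made Klf4 a called rise there (1.29).

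Over all tested genes, calls in PCs against naive B cells went from 1473 higher and 3397 lower to 551 and 7943 with Ig genes kept, 2349 and 1814 under median of ratios scaling 2817 and 1178 under both and 373 and 9601 with Ig genes kept and TPM not rescaled. In PCs against activated B cells they went from 1280 and 2870 to 420 and 7355, 2023 and 1788, 3010 and 1175, and 320 and 8909. Under quantile normalization the lower calls were 2047 and 1843, and with a mean TPM of at least 10 they were 1993 and 1890. With the replicate number as a block, Klf2 changed by 1.00 from naive to activated B cells (limma adjusted p = 0.00232) and was called, and no other member call changed. Whether equal numbers mark the same mouse is not known: deviations of same-numbered libraries correlated at -0.07 to 0.07. Depth limits Klf4 most, and the 95% intervals printed above are from limma and give the uncertainty of a difference, given the spread between libraries. The causes of these shifts were not tested, beyond the removal of Ig genes, which multiplies PC values.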
